A study of Mus musculus with 12 samples.

Results

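Hepcidin and the genes that sense, move and store iron were followed through 12 RNA-seq libraries of primary mouse hepatocytes. The set holds 10 genes, taken from the 55414 gene identifiers of the count table by their mouse symbols: Hamp, Tfr2, Tfrc, Hfe, Tmprss6, Slc40a1, Slc39a14, Slc11a2, Fth1 and Ftl1. All 10 were found and all 10 were among the 14919 genes that passed the filter on low counts. The cells came from liver and were labelled wild type (WT) or Hnf4a KO, a knockout of the nuclear receptor HNF4A that maintains hepatocyte identity. Each genotype received DMSO vehicle or MJ041, a compound known here only by its code name, with 3 libraries in each of the 4 groups. The title of the series sets the work in HNF4A dysfunction during sepsis and names MJ041 as a candidate ligand. Strain, age, how the knockout was made, which exons were removed, and the dose and time of MJ041 were not given in the sources used here. Nor do the labels say that the replicates came from separate animals, so p-values measure only the spread between these libraries, which may be technical.

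Hepcidin, the product of Hamp, is a peptide hormone made mainly by hepatocytes. It binds ferroportin, the iron exporter encoded by Slc40a1, and sends it for degradation, so that less iron leaves macrophages, gut cells and hepatocytes. Hepatocytes set Hamp transcription by a BMP-SMAD arm that reads iron stores and by an IL-6 and STAT3 arm that reads inflammation. Inside the cell, iron regulatory proteins bind hairpins called iron-responsive elements in the untranslated regions of mRNAs, blocking translation when the hairpin is upstream of the coding sequence and protecting the mRNA when it is downstream.

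The promoter of Hamp and that of its neighbouring copy Hamp2 are shown because both genes moved in the genotype comparison described further on. The stretches cover positions -130 to -1 before the RefSeq transcription start on the minus strand of GRCm38.p6, chr7:30944030-30944159 for Hamp and chr7:30924182-30924311 for Hamp2. Capitals mark GGCGCC, the core of the BMP-responsive element, and TTCTTGGAA, a STAT-binding site.
Hamp: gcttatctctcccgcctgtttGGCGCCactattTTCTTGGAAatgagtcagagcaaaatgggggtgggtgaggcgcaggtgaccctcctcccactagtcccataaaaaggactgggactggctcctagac
Hamp2: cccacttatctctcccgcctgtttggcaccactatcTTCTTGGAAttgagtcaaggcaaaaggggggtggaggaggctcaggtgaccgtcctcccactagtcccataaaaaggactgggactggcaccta
In Hamp the BMP core lies at -109 to -104 and the STAT site at -97 to -89. Hamp2 keeps the STAT site, at -94 to -86, but carries the substitution G4A within the BMP core, with positions counted from 1 at the 5′ base of the core. Over 127 aligned bases the stretches share 115, or 90.6%, with 12 substitutions. Searched on both strands of 32851 RefSeq mouse promoters from 250 bases before to 50 bases after the start, GGCGCC occurred in 11.9% and TTCTTGGAA in 0.417%. A promoter was matched for 6 of the 10 genes, and the BMP core was also found in that of Tfrc, at -89 to -84. The HNF4A-type letters CAAAGTCCA, present in 0.475% of promoters, and the looser CAAAGTNCA, present in 1.41%, had no match in the windows of these 6 genes or Hamp2. These matches describe letters only.

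Iron-responsive elements were searched in the first-numbered annotated transcript of each gene. The search took a C followed by 5 bases and a CAGTGN loop, with all 5 upper-stem bases paired. Matches were found in 4 of the 10 genes and are printed because their place divides Fth1, Ftl1 and Slc40a1 from Tfrc. Other isoforms and stems with a bulge or mismatch were not searched, so a gene without a match, Slc11a2 included, may still carry one. The 29-base stretches below, from GRCm38 and its annotation, have the 6-base loop in capitals.
Fth1, 5′ UTR, chr19:9982732-9982760, plus strand: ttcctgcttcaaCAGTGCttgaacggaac
Ftl1, 5′ UTR, chr7:45459779-45459807, minus strand: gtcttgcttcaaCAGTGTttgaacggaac
Slc40a1, 5′ UTR, chr1:45925465-45925493, minus strand: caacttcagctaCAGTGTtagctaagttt
Tfrc, 3′ UTR, chr16:32631710-32631738, plus strand: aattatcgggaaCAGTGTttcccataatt
The Tfrc hairpin is 1 of 4 found in its 3′ UTR, while Fth1, Ftl1 and Slc40a1 had 1 each, in the 5′ UTR. Translation was not measured here, and the values below are RNA levels.

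Libraries held between 16740761 and 17902832 counts. Hnf4a itself (ENSMUSG00000017950) was read at 121, 137 and 112 CPM (read counts normalised for library size) in WT cells with vehicle and 166, 178 and 142 with MJ041. In the libraries labelled KO it was at 61.1, 67.8 and 66.4 CPM with vehicle and 59.9, 76.0 and 66.7 with MJ041, so every library labelled KO was below every WT library, with RNA of the gene still present. Of the 8 hepatocyte markers 6 fell in KO with either treatment, beside 26.9% of all tested genes with vehicle and 27.6% with MJ041, Apoa1 rose and Cps1 did not pass. Alb, the albumin gene, made up most of their summed level, with means of 44806 CPM in WT and 18885 in KO with vehicle. Kupffer cell markers summed to 252 to 513 CPM in WT with vehicle, 188 to 376 in WT with MJ041, and 474 to 528 across the KO libraries, with all 15 detected. Endothelial markers summed to 173 to 415 CPM in WT and 254 to 387 in KO, and stellate markers to 88.1 to 184 and 127 to 197, although Lrat, which defines stellate cells, had at most 5 counts in a library. In these bulk samples, fewer cells of a type and less RNA per cell cannot be told apart.

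The first comparison asked how the iron genes differed between KO and WT cells given vehicle. Hepcidin RNA was higher in KO, as were the sensor Hfe and the exporter Slc40a1, while both ferritin genes, the sensor Tfr2 and the importers Tfrc, Slc39a14 and Slc11a2 were lower. By edgeR's quasi-likelihood test with Benjamini-Hochberg adjustment over all tested genes, 3 of the 10 rose, 6 fell, and Tmprss6 did not pass the threshold of 0.05. Genotype moved much of the transcriptome: 54.5% of tested genes passed, 27.5% upward and 26.9% downward, against 9 of 10 here. The median log2 fold change of the 10 genes was -0.26 and that of all tested genes was -0.002. With MJ041 in both genotypes, in libraries not used for the vehicle comparison, 3 of the 10 rose and 5 fell, against 54.4% of all tested genes called, 26.8% upward and 27.6% downward, with medians of -0.18 and 0.02. Hamp, Hfe and Slc40a1 rose and Tfr2, Slc39a14, Fth1 and Ftl1 fell in both comparisons, while Tfrc and Slc11a2 passed with vehicle only and Tmprss6 with MJ041 only. Whether these differences depended on treatment was tested as an interaction, described further on, and no member passed. Overlap of libraries is given below for single genes. Over all tested genes, KO and WT libraries did not overlap for 63.1% with vehicle and 59.2% with MJ041.

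**Figure D1:**
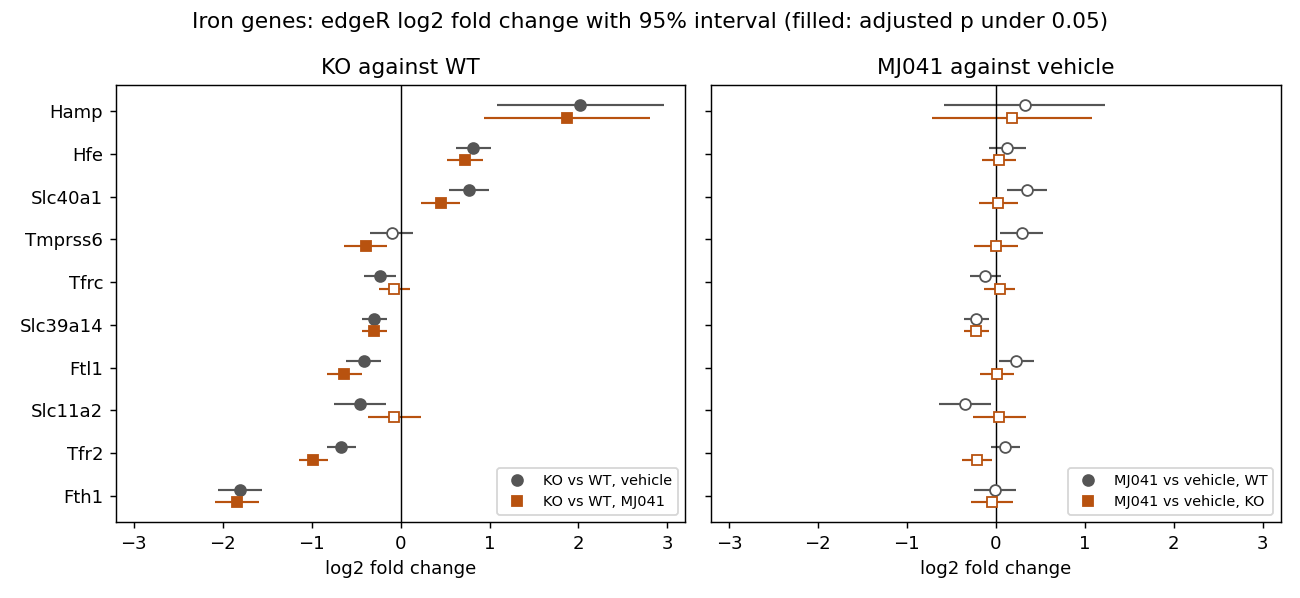
Log2 fold changes of the 10 iron genes with their 95% intervals, from edgeR fits to all 12 libraries; KO against WT is on the left and MJ041 against vehicle on the right, and filled symbols passed an adjusted p of 0.05. Hamp lies highest and Fth1 lowest on the left for either treatment, and no symbol on the right is filled.

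Hamp (ENSMUSG00000050440) was read at 244, 477 and 134 CPM in the 3 WT libraries with vehicle and at 1179.9, 1220.5 and 1064.4 CPM in the 3 KO libraries with vehicle. With MJ041 the WT libraries gave 588, 306 and 175 CPM and the KO libraries 1116.3, 1560.4 and 1244.6 CPM. The lowest KO library was thus above the highest WT library. Group means were 285 ± 175 CPM (SD, n = 3) in WT with vehicle, 357 ± 211 in WT with MJ041, 1155 ± 81.0 in KO with vehicle and 1307 ± 229 in KO with MJ041. Hamp was 4.05-fold higher in KO with vehicle, a log2 fold change of 2.02 (SE 0.43, edgeR adjusted p = 0.00151), and 3.67-fold higher with MJ041, at 1.87 (SE 0.43, edgeR adjusted p = 0.00243). Leaving out each library in turn gave log2 fold changes between 1.65 and 2.57 with vehicle and between 1.54 and 2.44 with MJ041, all past the threshold.

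The WT libraries also differed among themselves in Hamp far more than the KO libraries. The coefficient of variation was 61.5% and 59.2% in WT with vehicle and MJ041, and 7.01% and 17.5% in KO, a difference that was not tested. Within WT, Hamp was lowest in the libraries richest in markers of other liver cells: the 43 Kupffer, endothelial and stellate markers summed to 775, 657 and 1112 CPM in WT replicates 1 to 3 with vehicle and to 449, 507 and 829.7 CPM with MJ041. Over these 6 libraries Hamp and the marker sum had Pearson's r = -0.869 (exact permutation p = 0.0306, adjusted 0.153) and Spearman's rho = -0.943 (exact permutation p = 0.0167, adjusted 0.0835), two-sided and adjusted over the 10 genes. Without the libraries farthest from the median marker sum at either end, r was -0.564. The relation was looked at after the values were seen, and neither adjusted p passed 0.05. The KO libraries held 859 to 1112 CPM of these markers, and the part of other liver cells in the level of Hamp was not tested. A further fit took a marker covariate, the mean log2 CPM of those of the 43 markers that passed the filter on low counts, not their sum. It used the same slope for WT and KO, although the relation above was looked at in WT only. The fit therefore cannot decide what part other liver cells had. With this covariate the log2 fold change of Hamp was 2.26 with vehicle and 2.98 with MJ041 (edgeR adjusted p = 6.85e-06 and 1.05e-05). Without WT replicates 1 and 2 with MJ041, the libraries lowest in these markers, only replicate 3 was left in that group. It had the least Hamp of the group, and against this single library the log2 fold change of Hamp with MJ041 was 2.89.

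**Figure D2:**
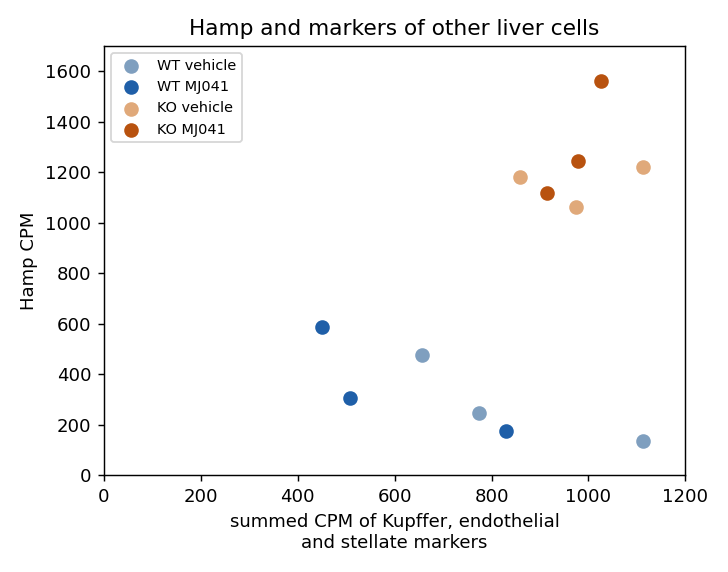
Hamp CPM (vertical axis) against the summed CPM of 43 markers of Kupffer, endothelial and stellate cells (horizontal axis), 1 point per library. The 6 WT points run from 588 CPM of Hamp at the lowest marker sum to 134 at the highest, and the 6 KO points lie at 1064.4 CPM or higher at marker sums of 859 or more.

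Hamp2 (ENSMUSG00000056978), whose transcript matches that of Hamp at 388 of 410 aligned bases, or 94.6%, was read at 18.0, 28.3 and 19.5 CPM in WT with vehicle and at 50.6, 45.3 and 46.5 CPM in KO with vehicle. With MJ041 it was at 41.7, 39.7 and 30.3 CPM in WT and at 57.2, 43.9 and 46.1 CPM in KO. KO and WT libraries did not overlap under either treatment. The difference was 2.17-fold with vehicle (log2 fold change 1.11, SE 0.16, edgeR adjusted p = 8.45e-05) and 1.32-fold with MJ041 (0.40, SE 0.16, edgeR adjusted p = 0.048). The latter missed the threshold in 8 of the 12 fits that left out a library, where it ranged from 0.26 to 0.48. Hamp2 made up 8.41 ± 3.83% of the reads of the pair in WT with vehicle and 3.96 ± 0.33% in KO with vehicle (SD, n = 3). Given this similarity and the unstated handling of reads that map to both genes, the split between them is uncertain.

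**Figure D3:**
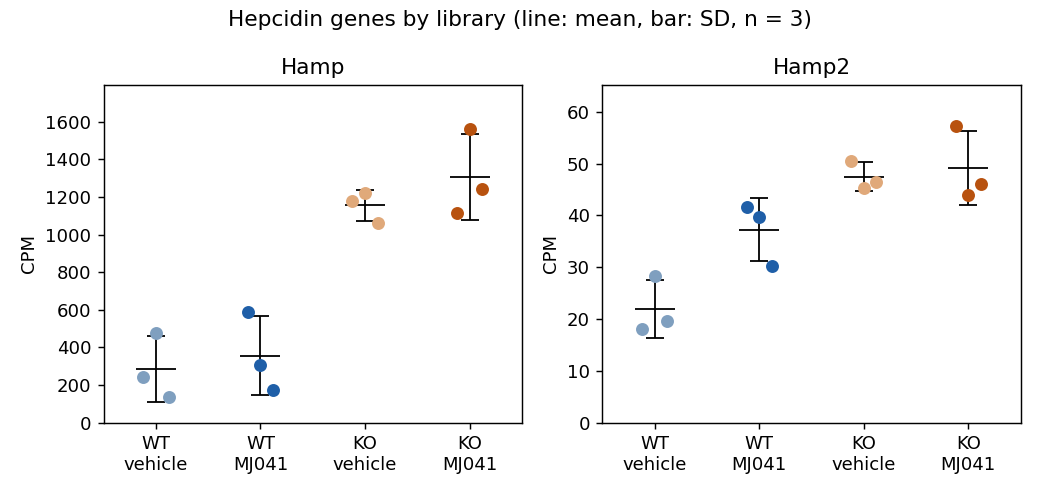
Hamp (left) and Hamp2 (right) in CPM for each library of the 4 groups, with the mean as a line and the SD as a bar (n = 3). All 6 KO libraries lie above all 6 WT libraries in both panels, and the WT libraries of Hamp spread from 134 to 588 CPM.

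HFE and transferrin receptor 2 are proteins that tell the hepatocyte how much iron circulates, and their RNAs moved in opposite directions. Hfe (ENSMUSG00000006611), a class I-like molecule that binds the transferrin receptors, was at 34.3, 32.4 and 25.6 CPM in WT and 53.8, 54.5 and 54.5 CPM in KO with vehicle. That is 1.76-fold higher (log2 fold change 0.82, SE 0.09, edgeR adjusted p = 9.39e-06), and it was 1.65-fold higher with MJ041 (0.73, SE 0.09, edgeR adjusted p = 2.54e-05). With MJ041 the WT libraries held 35.2, 35.0 and 30.8 CPM and the KO libraries 53.6, 58.0 and 55.4, again without overlap. Like Hamp, Hfe was lowest among WT libraries in replicate 3 of either treatment, and its r with the marker sum over the 6 WT libraries was -0.865 (exact permutation p = 0.0181, adjusted 0.153) with rho = -0.943 (exact permutation p = 0.0167, adjusted 0.0835) and r = -0.663 without the 2 farthest libraries. Tfr2 (ENSMUSG00000029716), which binds iron-loaded transferrin and whose loss lowers hepcidin, was at 99.5, 113 and 111 CPM in WT and 64.0, 69.1 and 70.6 CPM in KO with vehicle. Its log2 fold change was -0.66 (SE 0.08, edgeR adjusted p = 1.02e-05), and with MJ041 it was -0.98 (SE 0.08, edgeR adjusted p = 4.08e-07). Under MJ041 Tfr2 was at 127, 112 and 108 CPM in WT and 63.1, 56.2 and 56.8 CPM in KO, and the genotypes did not overlap under either treatment. Tmprss6 (ENSMUSG00000016942), the serine protease matriptase-2 that restrains hepcidin by acting on the BMP co-receptor hemojuvelin, was at 90.7, 118 and 104 CPM in WT and 82.8, 110.4 and 97.5 CPM in KO with vehicle. These groups overlapped, and the log2 fold change was -0.10 with a 95% interval from -0.35 to 0.14. With MJ041 the KO libraries, at 100.4, 95.9 and 94.3 CPM, lay below the WT ones at 144, 119.8 and 118 CPM, with a log2 fold change of -0.39 (SE 0.11, edgeR adjusted p = 0.00998). This call was lost with the marker covariate (edgeR adjusted p = 0.069). Without both WT libraries with MJ041 that were low in stellate markers, replicates 1 and 2, a single library was left in that group. The log2 fold change of Tmprss6 was then -0.29.

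The importers fell by small amounts, and not all falls held across treatments. Slc39a14 (ENSMUSG00000022094), the ZIP14 carrier that takes up iron not bound to transferrin, was at 387, 375 and 373 CPM in WT and 314, 307 and 306 CPM in KO with vehicle. It was lower by a log2 fold change of -0.29 (SE 0.06, edgeR adjusted p = 0.00183), and by -0.30 with MJ041 (SE 0.07, edgeR adjusted p = 0.0018). In both cases KO and WT libraries did not overlap, as for 63.1% of tested genes with vehicle and 59.2% with MJ041. Tfrc (ENSMUSG00000022797), transferrin receptor 1, which brings transferrin-bound iron into the cell, was at 195, 175 and 176 CPM in WT and 151, 165 and 149 CPM in KO with vehicle. Its log2 fold change was -0.23 (SE 0.08, edgeR adjusted p = 0.0279) with vehicle and -0.07 (SE 0.08, edgeR adjusted p = 0.492) with MJ041. The MJ041 libraries of Tfrc overlapped between genotypes, at 167, 168 and 168 CPM in WT and 137, 174 and 169 in KO. Slc11a2 (ENSMUSG00000023030), the divalent metal transporter DMT1, was at 119, 112 and 90.8 CPM in WT and 82.4, 77.5 and 74.3 CPM in KO with vehicle. It differed by -0.46 (SE 0.14, edgeR adjusted p = 0.012) with vehicle and by -0.07 (SE 0.14, edgeR adjusted p = 0.681) with MJ041. Its MJ041 libraries also overlapped, at 107, 69.6 and 76.8 CPM in WT and 86.0, 78.2 and 76.6 in KO. With vehicle, Tfrc lost its call without WT replicate 1, KO replicate 1 or KO replicate 3, with adjusted p up to 0.109, and Slc11a2 without WT replicate 1, at 0.0518.

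Slc40a1 (ENSMUSG00000025993), ferroportin, the exporter that hepcidin removes from the membrane, was at 79.4, 93.7 and 101 CPM in WT and 145, 175 and 147 CPM in KO with vehicle. With MJ041 it was at 122, 126 and 101 CPM in WT and at 160.4, 160.4 and 156 CPM in KO. All KO libraries were above all WT libraries, so the RNA of the hormone and that of its target were both higher in KO. The log2 fold change was 0.77 (SE 0.10, edgeR adjusted p = 4.07e-05) with vehicle and 0.45 (SE 0.10, edgeR adjusted p = 0.00231) with MJ041. Kupffer cells also express ferroportin, and their markers, 474 to 528 CPM in KO, overlapped with WT under vehicle but not under MJ041. With vehicle 2 of 14 tested Kupffer markers rose and 1 fell, beside 27.5% and 26.9% of all tested genes. With MJ041 3 rose and 1 fell, beside 26.8% and 27.6%. With the marker covariate the log2 fold change of Slc40a1 was 0.77 and 0.50 (edgeR adjusted p = 3.31e-05 and 0.00616). That covariate pools Kupffer markers with endothelial and stellate ones, so it cannot set Kupffer cells apart. The part of Kupffer cells in the level of Slc40a1 was not tested.

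**Figure D4:**
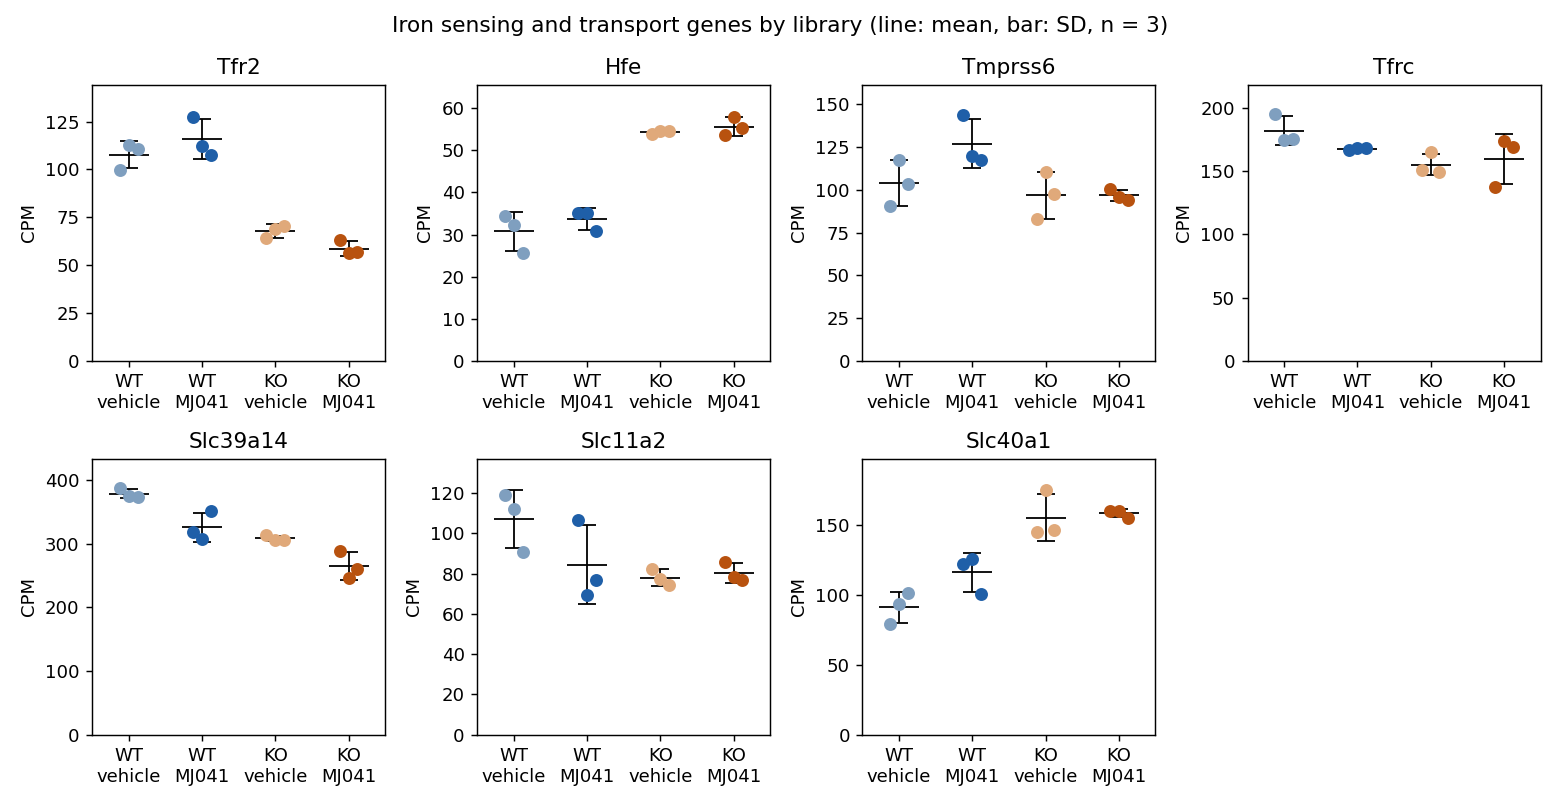
CPM of the 7 sensing and transport genes in each library of the 4 groups, with the mean as a line and the SD as a bar (n = 3); every axis starts at 0. Hfe and Slc40a1 were higher and Tfr2 lower in all KO libraries, whereas Tmprss6 overlapped between genotypes with vehicle.

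The ferritin genes carried the largest fall of the set. Fth1 (ENSMUSG00000024661), the heavy chain with the ferroxidase activity that loads iron into the shell, was at 7489.0, 7370.0 and 7464.5 CPM in WT and 1796.5, 2494.3 and 2096.9 CPM in KO with vehicle. With MJ041 it was at 7606.6, 7489.1 and 7155.6 CPM in WT and 1832.8, 2268.8 and 2111.0 CPM in KO. No KO library came near a WT library. Fth1 was 3.49-fold lower in KO with vehicle (log2 fold change -1.81, SE 0.11, edgeR adjusted p = 6.07e-08) and 3.58-fold lower with MJ041 (-1.84, SE 0.11, edgeR adjusted p = 4.93e-08). Ftl1 (ENSMUSG00000050708), the light chain that helps the mineral core form, was at 2537.3, 2704.0 and 2650.2 CPM in WT and 1764.5, 2205.7 and 1951.7 CPM in KO with vehicle. Its log2 fold change was -0.41 (SE 0.09, edgeR adjusted p = 0.00167) with vehicle and -0.63 (SE 0.09, edgeR adjusted p = 6.42e-05) with MJ041.

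The heavy chain therefore fell further than the light chain, and the ratio of Fth1 to Ftl1 CPM shows it library by library. That ratio was 2.95, 2.73 and 2.82 in WT with vehicle, 2.36, 2.49 and 2.37 in WT with MJ041, 1.02, 1.13 and 1.07 in KO with vehicle, and 1.03, 1.05 and 1.04 in KO with MJ041. Neither the KO and WT libraries nor the WT libraries of the 2 treatments overlapped. Each of these differences had a two-sided exact permutation p = 0.10, the smallest that 3 libraries against 3 allow. The ferritin pseudogene Ftl1-ps1, at 736 counts over WT and 230 over KO with vehicle, fell as well (log2 fold change -1.68, SE 0.13, edgeR adjusted p = 3.38e-07). The other ferritin copies searched had at most 8 counts in a library. How reads shared with Ftl1 were assigned was not given in the sources used here.

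**Figure D5:**
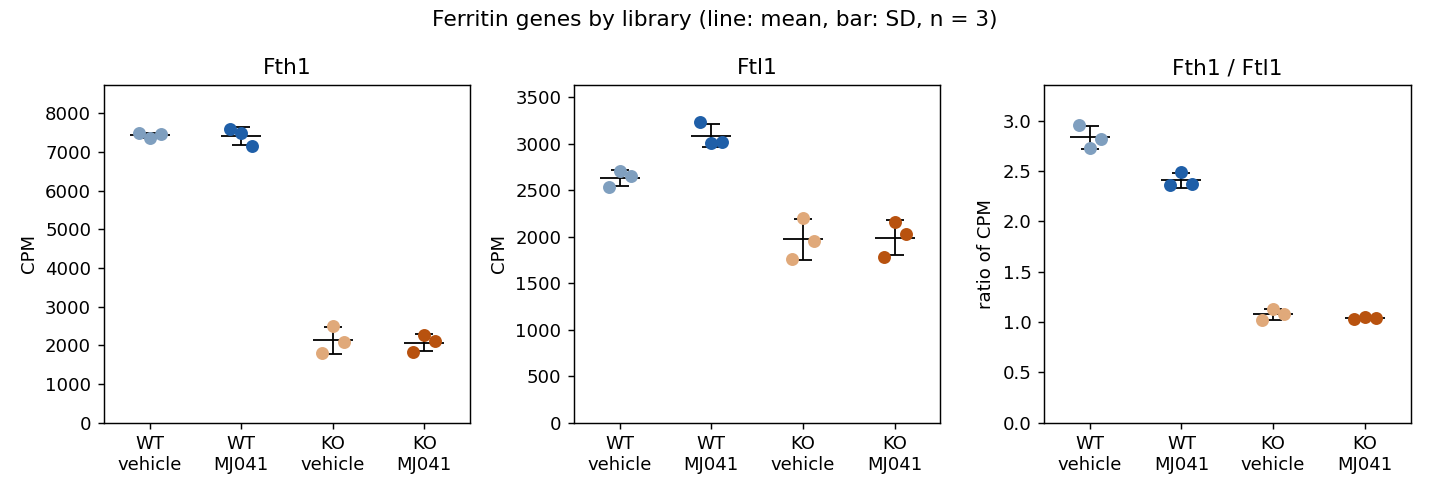
Fth1 CPM (left), Ftl1 CPM (middle) and their ratio (right) in each library, with the mean as a line and the SD as a bar (n = 3). Fth1 is at 7155.6 CPM or more in all WT libraries and at 2494.3 or less in all KO libraries, and the ratio drops from 2.36 or more to 1.13 or less.

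Per kilobase of the principal transcript, the order of the members changed at its top. In WT with vehicle Fth1 led with 8010 CPM per kb, followed by Ftl1 with 2717 and Hamp with 695, and the ranges of these 3 did not overlap. In KO with vehicle Hamp was highest with 2817 CPM per kb, ahead of Fth1 with 2292 and Ftl1 with 2039, but the library ranges of Hamp and Fth1 overlapped, as did those of Fth1 and Ftl1. In KO with MJ041 Hamp stood at 3188 CPM per kb and did not overlap with Fth1 at 2229, which overlapped with Ftl1 at 2056. Slc39a14 came after these 3 in every group, at 53.8 to 76.9 CPM per kb, and Hfe last, at 8.62 to 15.6. Between them, Tfrc, Tfr2, Slc11a2, Tmprss6 and Slc40a1 overlapped with their neighbours in WT with vehicle, whereas in KO Slc40a1, at 46.2 CPM per kb with vehicle and 47.1 with MJ041, stood apart above Tfrc and below Slc39a14. Fth1 has longer annotated isoforms, with 3.469 kb of merged exons against 0.929 kb in the transcript used, so its place relative to Ftl1 rests on that choice. Other places in the order rest on it too. Per kilobase of merged exons, Slc40a1 in KO was at 17.3 with vehicle and 17.6 with MJ041, below Tfrc at 25.1 and 25.8. With MJ041, Slc39a14 was below Tmprss6, at 30.9 against 37.8 in WT and 25.1 against 28.8 in KO. In KO with vehicle, Hfe at 15.2 was above Slc11a2 at 12.3.

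The BMP-SMAD arm, with 19 tested genes, had 7 higher and 10 lower in KO with vehicle, beside 27.5% and 26.9% of all tested genes, and a median log2 fold change of -0.24. Its parts moved in different directions. The ligand Bmp6, made in liver mainly by endothelial cells, was at 20.9, 22.1 and 22.2 CPM in WT and 41.6, 46.9 and 48.0 CPM in KO (log2 fold change 1.06, SE 0.08, edgeR adjusted p = 4.27e-07). Hjv, the hemojuvelin co-receptor and substrate of matriptase-2, had 16, 19 and 18 counts in the WT libraries and 137, 107 and 120 in the KO libraries, a 6.79-fold difference (2.76, SE 0.26, edgeR adjusted p = 1.95e-06). Atoh8, a transcription factor that BMP signalling induces and that binds the Hamp promoter, had 22, 34 and 17 counts in WT and 263, 241 and 274 in KO, a 10.5-fold difference (3.40, SE 0.23, edgeR adjusted p = 1.22e-07). Smad4, the partner of the receptor-activated SMADs, fell (-0.51, SE 0.05, edgeR adjusted p = 3.03e-06). Id1, a common target of the same arm, named after its values were seen, rose (0.72, SE 0.14, edgeR adjusted p = 0.000735). Smad7 and Smad6 of the same list, also named after their values were seen, did not rise with it. Smad7 was at 40.6 to 43.7 CPM in WT and lower, at 33.8 to 36.3, in KO. Smad6 overlapped, at 3.58 to 6.85 CPM in WT and 4.46 to 6.64 in KO. With MJ041, 7 rose and 9 fell, beside 26.8% and 27.6% of all tested genes, among them Bmp6 (1.31), Atoh8 (2.69), Smad4 (-0.59) and Fgl1, a liver-made antagonist of BMP ligands (1.04, SE 0.08, edgeR adjusted p = 4.29e-07). Of the 14 endothelial markers, 1 rose and 1 fell with vehicle, beside 27.5% and 26.9% of all tested genes. With MJ041 4 rose and none fell, beside 26.8% and 27.6%. The part of endothelial cells in the rise of Bmp6 was not tested.

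In the IL-6 and STAT3 arm none of 10 tested genes rose and 7 fell with vehicle, against 26.9% of all tested genes falling. They included the receptor chains Il6ra (log2 fold change -0.77, SE 0.08, edgeR adjusted p = 5.42e-06) and Il6st (-0.35, SE 0.08, edgeR adjusted p = 0.00327), the kinase Jak1 (-0.37) and the transcription factor Stat3 (-0.44). With MJ041 5 of the 10 fell, beside 27.6% of all tested genes, and none rose. The median log2 fold change of the arm was -0.36 with vehicle and -0.09 with MJ041, beside -0.002 and 0.02 over all tested genes. Only RNA levels of these components were measured, and the part of this arm in the level of Hamp was not tested.

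Genes of iron regulatory proteins and ferritin turnover had 3 of 10 higher and 2 lower with vehicle, near the 27.5% and 26.9% of all tested genes. Fbxl5, the ubiquitin ligase subunit that senses iron and removes the regulatory protein IRP2, rose (log2 fold change 0.43, SE 0.07, edgeR adjusted p = 0.000217), and Ireb2, which encodes IRP2, fell (-0.30, SE 0.05, edgeR adjusted p = 0.000347). Pcbp1, a chaperone that hands iron to ferritin, fell (-0.52, SE 0.05, edgeR adjusted p = 4.14e-06), and Epas1, the hypoxia factor HIF-2α, rose (0.70, SE 0.12, edgeR adjusted p = 0.000254). With MJ041 1 of the 10 rose and 4 fell, beside 26.8% and 27.6% of all tested genes: Fbxl5 rose by 0.36, and Ireb2 (-0.35), Pcbp1 (-0.56) and its relative Pcbp2 (-0.28) were among those that fell.

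Of 22 tested genes that carry iron and heme in plasma or across membranes, 6 rose and 9 fell with vehicle, beside 27.5% and 26.9% of all tested genes. With MJ041 6 rose and 7 fell, near the 26.8% and 27.6% of all tested genes. Lrp1, the receptor that clears heme bound to hemopexin, rose (log2 fold change 1.62, SE 0.06, edgeR adjusted p = 6.87e-10), as did Hp, the hemoglobin-binding plasma protein haptoglobin (1.89, SE 0.12, edgeR adjusted p = 5.61e-08). Blvrb, a biliverdin reductase, rose by 0.71 and Flvcr1, a heme exporter, fell by 0.62. Trf, which encodes the plasma iron carrier transferrin, fell in KO with vehicle (-1.13, SE 0.14, edgeR adjusted p = 2.4e-05) and with MJ041 (-1.40, SE 0.14, edgeR adjusted p = 3.97e-06). Steap3, a ferrireductase, also fell with vehicle (-0.53, SE 0.09, edgeR adjusted p = 0.000177) and with MJ041 (-0.87, SE 0.09, edgeR adjusted p = 2.67e-06). Chosen after their values were seen, Cp, the plasma ferroxidase ceruloplasmin, rose with vehicle (1.37, SE 0.19, edgeR adjusted p = 5.04e-05), and Hmox1, which opens the heme ring and frees its iron, fell (-1.59, SE 0.25, edgeR adjusted p = 0.000125).

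Among genes of heme and iron-sulfur cluster synthesis rises outnumbered falls, with 9 of 19 higher and 2 lower with vehicle, and 7 higher and 2 lower with MJ041, beside 27.5% and 26.8% of all tested genes higher. Fech, which inserts iron into protoporphyrin, rose (log2 fold change 0.66, SE 0.08, edgeR adjusted p = 2.07e-05), as did Ppox, the enzyme before it (0.64, SE 0.08, edgeR adjusted p = 1.47e-05). Nfu1, an iron-sulfur scaffold, rose by 0.51. Alas1, the rate-limiting step of heme synthesis in liver, fell (-0.41, SE 0.07, edgeR adjusted p = 0.00018), and Glrx5, another iron-sulfur protein, fell with vehicle (-0.54, SE 0.11, edgeR adjusted p = 0.00105) and with MJ041 (-0.78, SE 0.11, edgeR adjusted p = 5.37e-05).

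MJ041 was compared with vehicle in WT cells next. None of the 10 genes passed the threshold, against 2.21% of all tested genes, 1.19% upward and 1.02% downward. Of the 10, 5 had an unadjusted p below 0.05, beside 3219 of the 14919 tested genes. DESeq2 called 2 of the 10, beside 894 of all tested genes, and limma voom 0 of the 10, beside 402. Slc40a1 was at 122, 126 and 101 CPM with MJ041 and 79.4, 93.7 and 101 with vehicle, overlapping only through replicate 3 of each (log2 fold change 0.35, 95% interval 0.12 to 0.57, edgeR adjusted p = 0.0902). Slc39a14 was at 318, 308 and 351 CPM with MJ041, below all vehicle libraries (-0.22, 95% interval -0.36 to -0.08, edgeR adjusted p = 0.0896). These were the genes DESeq2 called, at adjusted p = 0.0425 and 0.0248, and edgeR called the same pair when WT replicate 3 with MJ041 was left out. A fit with no filter on low counts called Slc40a1, Slc11a2, Tmprss6 and Ftl1 (edgeR adjusted p = 0.000606, 0.00455, 0.00787 and 0.0471) but not Slc39a14. That fit called 1667 of all its tested genes. Without WT replicates 1 and 2 with MJ041, the libraries lowest in markers of other liver cells, only replicate 3 was left in that group. The log2 differences were then 0.14 for Slc40a1 and -0.11 for Slc39a14. With the marker covariate they were 0.30 and -0.19 (edgeR adjusted p = 0.31 and 0.296). Ftl1, at 3228.8, 3003.8 and 3022.2 CPM, was higher in every MJ041 library than in any vehicle library (0.23, 95% interval 0.04 to 0.42, edgeR adjusted p = 0.165), and Tmprss6 (0.29) and Slc11a2 (-0.35) overlapped between treatments. With Tfrc, 3 of the 10 genes did not overlap between treatments, against 22.3% of tested genes.

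For Hamp the MJ041 difference in WT was 0.32 on the log2 scale with a 95% interval from -0.59 to 1.23 (edgeR adjusted p = 0.709). The sign turned with the marker covariate (-0.46). It also turned when the WT replicates 1 and 2 with MJ041 were left out (-0.70), which kept a single library in that group. Fth1 differed by -0.005, with an interval from -0.24 to 0.23. Hamp2 rose 1.70-fold (log2 fold change 0.76, SE 0.17, edgeR adjusted p = 0.0417), with no overlap between its libraries. This call was lost in 9 of the 12 fits without a library (edgeR adjusted p 0.00485 to 0.205), with the marker covariate (0.128) and in a fit of the 2 groups alone (0.179). Without WT replicates 1 and 2 with MJ041 the log2 difference of Hamp2 was 0.47, again from a single library in that group.

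Upstream of hepcidin, 3 genes passed in WT cells with MJ041, 1 in the BMP-SMAD arm and 2 in the IL-6 arm, and none in the other 3 lists, beside 1.19% of all tested genes rising and 1.02% falling. Atoh8 rose from 22, 34 and 17 counts to 60, 51 and 40 (log2 fold change 1.13, SE 0.26, edgeR adjusted p = 0.0446). Il6 itself, which encodes the cytokine, fell from 41, 23 and 53 counts to 0, 1 and 8 (-3.56, SE 0.65, edgeR adjusted p = 0.0317). Socs3, the feedback inhibitor that IL-6 signalling induces, fell from 420, 320 and 411 counts to 198, 129 and 266 (-0.87, SE 0.19, edgeR adjusted p = 0.0417). Libraries of the 2 treatments did not overlap for any of the 3. Yet the calls were lost in 10, 7 and 10 of the 12 fits without a library, with edgeR adjusted p up to 0.206, 0.176 and 0.195. Kupffer, endothelial and stellate markers were lower in WT replicates 1 and 2 with MJ041 than in any vehicle library, at 449 and 507 CPM in all. Without these 2 libraries, which left a single library in that group, the log2 differences of Atoh8, Il6 and Socs3 were 0.76, -2.21 and -0.48. With the marker covariate none of the 3 passed, at edgeR adjusted p of 0.165, 0.0949 and 0.13.

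In KO cells given MJ041 none of the 10 genes passed edgeR's quasi-likelihood test, against 0% of all tested genes. DESeq2 and limma voom also called 0 of the 10. Beside 414 of the 14919 tested genes, 2 of the 10 had an unadjusted p below 0.05. Those were Slc39a14, at 289, 246 and 260.1 CPM with MJ041 against 314, 307 and 306 with vehicle (log2 fold change -0.22, 95% interval -0.36 to -0.08, edgeR adjusted p = 1), and Tfr2, at 63.1, 56.2 and 56.8 CPM against 64.0, 69.1 and 70.6 (-0.21, 95% interval -0.38 to -0.04, edgeR adjusted p = 1). Libraries of the 2 treatments did not overlap for this pair, 2 of the 10 genes, against 9.51% of tested genes. Hamp differed by 0.18 with an interval from -0.72 to 1.08 and Fth1 by -0.04 with an interval from -0.28 to 0.20. None of the genes in the 5 further lists passed.

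The difference between the MJ041 responses of the genotypes was tested directly. None of the 10 genes passed by edgeR's quasi-likelihood test, against 0% of all tested genes. DESeq2 and limma voom called 0 of the 10, beside 211 and 0 of all tested genes. Beside 1980 of the 14919 tested genes, 2 of the 10 had an unadjusted p below 0.05. They were Tfr2, whose response was lower in KO by -0.32 on the log2 scale (95% interval -0.55 to -0.08, edgeR adjusted p = 0.237), and Slc40a1, also by -0.32 (95% interval -0.63 to -0.003, edgeR adjusted p = 0.373). For Slc39a14, which was lower with MJ041 in both genotypes, the responses differed by -0.002 with an interval from -0.20 to 0.20. Hamp differed by -0.15 with an interval from -1.42 to 1.13.

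Across the 12 libraries, the genes most like Hamp in log2 CPM among the 10568 candidates averaging 5 CPM or more were Ctps (Pearson's r = 0.985), Osbpl3 (0.979), Arsb (0.978), Ift52 (0.978) and Gm4673 (0.978). Each had higher means in the KO groups. The 12 libraries share that genotype difference, so the correlation is a description only, and it was not computed within a genotype. Osbpl3, a lipid-transfer protein of the oxysterol-binding family, averaged 17.8 and 21.7 CPM in WT with vehicle and MJ041 and 37.5 and 44.1 in KO. Arsb, a lysosomal sulfatase, averaged 33.4 and 41.0 CPM in WT and 64.2 and 69.5 in KO.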

How the data were processed

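Total RNA of 12 libraries was made into stranded libraries and sequenced on an Element AVITI instrument, per the labels' protocols. The deposited table holds raw read counts per Ensembl gene, not normalized by the authors. Tools listed in the submitters' processing notes are Trimmomatic 0.34 for trimming, FastQC, the aligner STAR 2.7.10b, DESeq2 and featureCounts, with build mm39. The strand and multimapping settings were not given in the sources used here. Libraries were grouped by the genotype and treatment in their labels. Symbols matched 52081 of 55414 identifiers. The annotation at hand is of GRCm38, another build, and gave only symbols, transcript lengths and the printed sequences (promoters from RefSeq).

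The counts were fitted with edgeR 4.0.16 in R 4.3.3: filterByExpr with a minimum count of 10, TMM scaling, a quasi-likelihood fit of the 4 group means over all 12 libraries, and Benjamini-Hochberg adjustment over 14919 genes with a threshold of 0.05. All 5 contrasts came from that fit, in which comparisons that use the same group share its 3 libraries. CPM uses TMM-scaled library sizes, and an SE is the log2 fold change over the root of its F statistic. Alternatives were DESeq2 1.42.0, limma voom 3.58.1, no TMM factor, no filter and only the groups compared. A replicate block, a marker covariate and fits without libraries were further alternatives. The fit without WT replicates 1 and 2 with MJ041 left a single library in that group. The marker covariate was the mean log2 CPM of the Kupffer, endothelial and stellate markers that passed the filter on low counts. The fit was tested on simulated data with 50 genes changed at each fold. Changes of 1.3-fold were recovered for 36% of genes in KO against WT with vehicle and 40% in MJ041 against vehicle in WT. At 1.5-fold it was 90% in each, so small differences can be missed. False calls made up 4.19% and 5.17%. Few of the 14919 genes were changed in the simulation, and all groups started from the WT vehicle level. In the data 54.5% of genes passed in KO against WT with vehicle, so the simulated shares do not carry over to that comparison. Within groups, pairs of libraries differed by a chi-square per degree of freedom of 4.73 to 15.98, so none repeats another.

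The members, gene lists and alternatives were chosen with earlier results of these data known. The text names all members, in each further iron list up to 4 passing genes with the smallest adjusted p, the 5 genes most correlated with Hamp, and Hnf4a; the text says where a gene was named after its values were seen. Cholangiocyte markers summed to 150 to 543 CPM in WT and 221 to 442 in KO.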

Additional observations from a re-analysis of the deposited data

How the results depend on the processing

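With vehicle, 9 of the 10 iron genes differed between KO and WT under all 8 alternatives other than leaving out a single library, and 7 to 9 did without each library in turn. The same fits called 7775 to 8844 and 7389 to 8495 of all tested genes, so such stability was not particular to the iron genes. With MJ041, 7 or 8 did, leaving aside the fit that kept a single WT library. All tested genes called with MJ041 were 7365 to 8287 under the other alternatives and 7321 to 8216 without each library. Log2 fold changes of Hamp over those 8 alternatives ran from 2.02 to 2.26 with vehicle and from 1.87 to 2.98 with MJ041, and those of Fth1 from -1.82 to -1.79 and from -1.88 to -1.77.

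The MJ041 response in WT cells was sensitive to nearly every choice. Against 0 of the 10 iron genes, DESeq2 called 2, a fit with no filter 4, and fits without a library 0 to 2. Against 329 of all tested genes, DESeq2 called 894, no filter 1667 and the replicate block 649. The marker covariate and the fit of only the 2 groups called 0 each. Fits without a library called 0 to 2059, the most without WT replicate 3 with MJ041. Leaving out both MJ041-treated WT libraries with few stellate marker reads kept a single library in that group, so calls of that fit are not given. In KO cells DESeq2 called 1 gene and no filter 15, against 0. For the difference in response DESeq2 called 211 and no filter 886, against 0, and fits without a library 0 to 852. The cause was not tested.

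Sign changes befell only differences that were not called. For KO against WT with MJ041, Slc11a2 was 0.16 with the marker covariate and 0.057 without both low-marker libraries. For MJ041 in WT, Fth1 was 0.0069 with no filter and 0.028 with the covariate, and Hamp -0.46 with the covariate and -0.70 without both libraries. For MJ041 in KO, Tmprss6 was 0.0088 with limma voom, 0.0014 without TMM, 0.0040 with the replicate block and 0.0042 with the covariate. For the difference in response, Slc39a14 was 0.056 and Fth1 0.027 without TMM, Hamp 0.73 and Hfe 0.033 with the covariate, and Hamp 0.88, Hfe 0.032 and Fth1 0.012 without both libraries. Leaving out each library, those that changed sign ranged as follows. For KO against WT with MJ041, Slc11a2 ran from -0.21 to 0.13 and Tfrc from -0.15 to 0.015. For MJ041 in WT, Hamp ran from -0.24 to 0.88, Hfe from -0.0076 to 0.21 and Fth1 from -0.042 to 0.018. For MJ041 in KO, the ranges were -0.025 to 0.12 for Slc40a1, -0.069 to 0.099 for Ftl1, -0.11 to 0.10 for Tmprss6, -0.16 to 0.0895 for Fth1, -0.013 to 0.074 for Slc11a2, -0.078 to 0.11 for Hamp2, -0.028 to 0.14 for Tfrc, -0.0028 to 0.061 for Hfe and -0.049 to 0.13 for Hnf4a. For the difference in response they were -0.045 to 0.064 for Slc39a14, -0.71 to 0.42 for Hamp, -0.18 to 0.038 for Hfe and -0.12 to 0.094 for Fth1.

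Replicate numbers do not pair the libraries by the labels. Same-numbered libraries of different groups had correlations of their deviations from -0.0994 to 0.499, with 6 of 18 above 0.1, and for 9 of 12 libraries the closest library of another group had the same number, a hint from the data and not from the design. With the replicate block 9, 8, 0, 0 and 0 of the 10 genes were called in the 5 comparisons, in the order of the text, and 8318, 8287, 649, 0 and 0 of all tested genes. The fit of only the groups compared was not run for the difference in response, which needs all 4 groups.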

Other observations

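Alas2, the erythroid form of the enzyme that starts heme synthesis, was chosen after its values were seen. It had 37, 37 and 43 counts in the WT libraries with vehicle and 0, 1 and 1 in the KO libraries with vehicle, 117 against 2 in all. With MJ041 the WT libraries had 39, 31 and 37 counts and the KO libraries 1, 0 and 3, 107 against 4 in all. Scaled by library size, the WT to KO ratio was 58.7 with vehicle (95% interval 15.9 to 491) and 28.0 with MJ041 (95% interval 10.6 to 104), intervals that cover counting error only, since PCR copies were not removed by molecular identifiers. Every WT library was above every KO library. The 4 globin genes searched had at most 6 counts in a library. Alas1, the form used by hepatocytes, also fell in KO, but by a log2 fold change of -0.41 with vehicle.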
